A study of Mus musculus with 2 samples.

Results

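Exonic distal regions are stretches of accessible chromatin that lie away from transcript starts and are centred on an exon. They were taken from the list of accessible regions of mouse CFU-E cells that passed the authors' threshold on IDR, the irreproducible discovery rate, a measure of how repeatable a peak's rank is. Overlapping or touching records of that list were merged into 24394 regions, and a region was kept when its midpoint was over 1 kb from every annotated transcript start and inside an exon of any gene. The rule kept 878 regions, out of 12040 distal regions in all. By the same midpoint, 272 lay in coding exons, 320 in 3' UTRs, 11 in 5' UTRs and 275 in exons of non-coding transcripts. Within that list the rule used position only, and fold, replicate sharing and motif content did not enter it. The threshold on IDR had already selected regions by the repeatability of their rank. The fold and sharing values below therefore describe regions that passed it.

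The cells were CFU-E, colony-forming erythroid progenitors, primary cells of adult male mice of the C57BL/6J strain aged 5 to 6 weeks, with no treatment or genotype change named in the labels. ATAC-seq, which reads out open DNA as the places where a transposase can insert, was run on 2 libraries of 50000 cells each that form 1 group. The libraries are numbered as biological replicates 1 and 2, come from separate biosamples and share 1 donor identifier, and a pair of sequencing instruments is listed for replicate 1 only. Separate animals could not be shown, so both were treated as 1 sample: values have no SD, no comparison between conditions exists, and intervals are 95% Wilson intervals that cover counting error over regions only. Of 122 genes in 5 erythroid lists, 106 (86.9%) had a region that overlapped the 1 kb to either side of one of their transcript starts. That compares with 17 of 123 (13.8%) in 10 lists of other cell types and 45.8% of all protein-coding genes. All 32 listed erythroid regulators had one.

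An exon can carry regulatory DNA as well as the message that is transcribed from it, and in a coding exon the same bases then serve as codons and as a binding site. Elements of this kind are known from several tissues, and they can act on the host gene or on a neighbour. In erythroid progenitors the best known distal elements are bound by GATA1 with TAL1 on a composite motif, by KLF1 on CACC boxes and by NFE2, while CTCF marks boundaries and loop anchors in most cell types.

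The sequences below are windows of at most 30 bases around consensus matches in exonic distal regions, read from the RefSeq GRCm38.p6 assembly (the mm10 build) 5′ to 3′ on the strand of the match, with the match in capitals. They are shown because each capital stretch lies wholly in exon sequence within 100 bp of the strongest summit. A match is a stretch of letters, not a measurement of binding. The first pair holds the CTCF consensus inside coding exons, in Tecpr2 (chr12:110936425-110936454, plus strand) and Synpo2l (chr14:20661153-20661182, minus strand), and the second pair inside 3' UTRs, in Cryzl1 (chr16:91694873-91694902, plus strand) and Dennd2a (chr6:39463057-39463086, plus strand).
Tecpr2: agatgctgtCCAGCAGATGGCagtctctcc
Synpo2l: ttcatgcagCCACTAGGGGGCaggagttac
Cryzl1: gtcagccgtCCACTAGAGGGCagccatgca
Dennd2a: cagtctctgCCACCAGGTGGCgtcatagac

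The next 5 windows hold the GATA pair, which is CTG followed after 7, 8 or 9 bases by the GATA consensus (A or T, GATA, then A or G). Those of Ankrd40 (chr11:94334518-94334547, minus strand), Tnrc18 (chr5:142772135-142772163, minus strand) and Zbtb5 (chr4:44994041-44994069, plus strand) lie in coding exons. Those of Luc7l3 (chr11:94290222-94290251, plus strand) and Gatc (chr5:115333736-115333764, plus strand) lie in 3' UTRs.
Ankrd40: cttctgCTGCAGGGGTGTAGATAAaaggga
Tnrc18: ctggcaCTGTCTCCTGAAGATAAgcccat
Zbtb5: cagcctCTGGACTCAACAGATAAggggcc
Luc7l3: cctacagCTGCATCTCTAGATAAgccgggg
Gatc: gggaggCTGTAGCAGGAAGATAGctgtgt

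The last windows hold the KLF consensus (CC, A or C, C, A or G, then CCC). Those of Zfp568 (chr7:30024002-30024031, plus strand) and Hpd (chr5:123171863-123171892, minus strand) lie in 3' UTRs, and that of Klf1 (chr8:84903123-84903152, minus strand) lies in a coding exon of the gene for the erythroid factor that binds such boxes.
Zfp568: ttggaacctttCCACACCCacacccgggcc
Hpd: ccacgtcatggCCACGCCCcctctattaca
Klf1: ggcaccgcaagCCCCGCCCgcgggaagaag

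Exons held a small part of distal accessibility and more of it per base than introns or intergenic sequence. Exonic regions were 7.29% of distal regions (interval 6.84 to 7.77%), introns held 6458 and intergenic sequence 4704. Distal exon sequence came to 84.3 Mb and carried 10.4 regions per Mb, against 6.36 in 1015 Mb of distal intron and 3.39 in 1388 Mb of intergenic sequence. The ratio of exonic to intronic density was 1.64. Coding exons (10.8 per Mb), 3' UTRs (10.4) and non-coding exons (9.96) were close to each other, and 5' UTRs (16.6) rest on 11 regions in 0.664 Mb. Repeat content differed between the classes: the mean repeat-masked share of a region was 6.44% in coding exons, 9.91% in 3' UTRs, 12.9% in non-coding exons and 15.1% in introns, and its part in the densities was not tested.

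**Figure D1:**
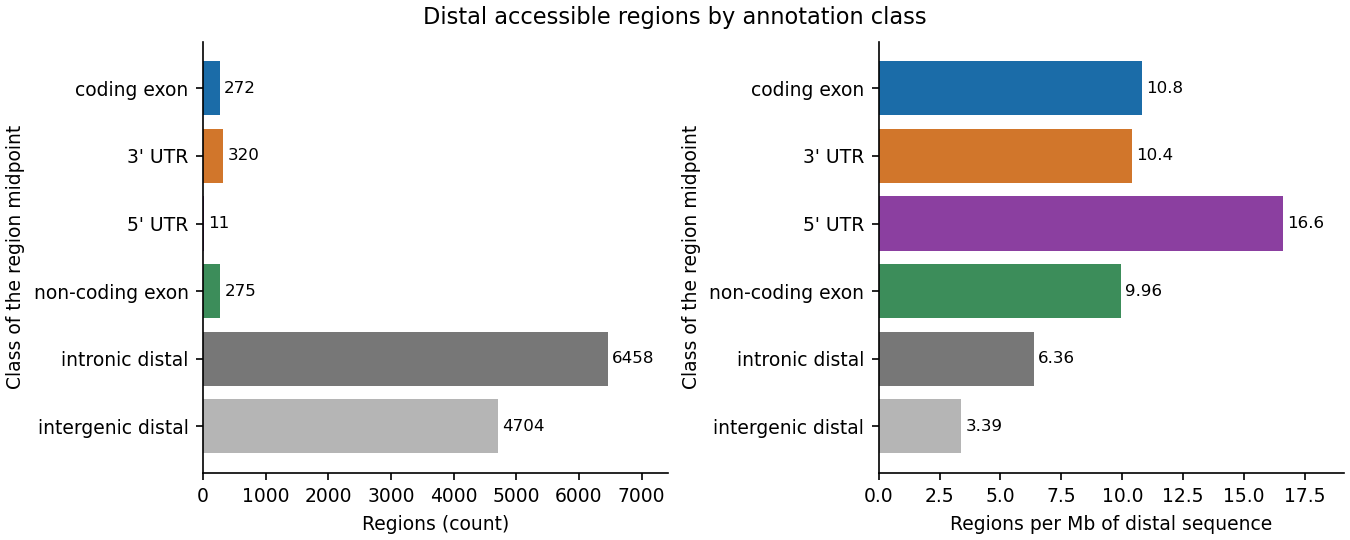
Distal regions by the annotation class of their midpoint: the left panel plots the number of regions and the right panel the number per Mb of distal sequence of that class, one bar per class. Exon classes are small in number (11 to 320) and sit at 9.96 to 16.6 per Mb, above introns at 6.36 and intergenic sequence at 3.39.

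Exonic regions lay nearer to transcript starts than other distal regions. Within 2 kb of a start were 246 of the 878 (28.0%), against 15.5% of intronic and 8.91% of intergenic distal regions. The share of distal regions that were exonic was 14.8% (13.2 to 16.6%) between 1 and 2 kb, 10.9% between 2 and 5 kb, 6.12% between 5 and 10 kb, 3.02% between 10 and 50 kb and 1.53% (0.702 to 3.29%) beyond 50 kb, where 6 regions were exonic. How much of the distal sequence in each band is exonic was not computed, so its part in this fall was not tested. The median distance was 2164 bp in the 11 5' UTR regions, 2434 bp in non-coding exons, 3321 bp in coding exons and 4446 bp in 3' UTRs. Fold here is a ratio that the authors gave each peak, taken from the strongest record of a merged region. It was read as enrichment over background from the layout and values of the lists, since the sources used here do not name the caller. Just outside the limit lay regions of Hid1 at 1003 bp (fold 5.53), Ythdc2 at 1005 bp (9.72) and Magee1 at 1006 bp (5.00). Just inside it, and so not counted, lay exonic regions nearest to the starts of Pum2 at 998 bp (fold 6.42), Tut7 at 996 bp (10.32) and Cyp2w1 at 993 bp (7.63).

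**Figure D2:**
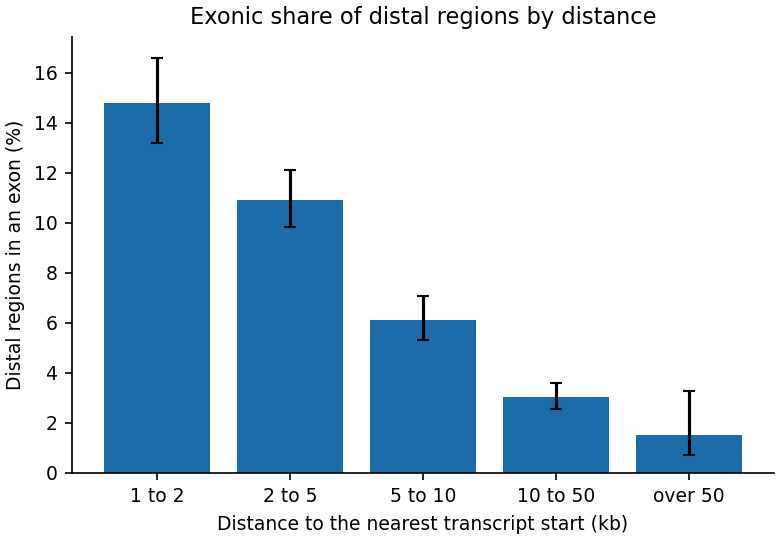
Share of distal regions whose midpoint is in an exon (y axis, percent) by distance to the nearest annotated transcript start (x axis, kb); bars are shares and error bars 95% Wilson intervals. The share falls from 14.8% in the band of 1 to 2 kb to 3.02% in the band of 10 to 50 kb.

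The starts came from GENCODE M21, and RefSeq places further starts. A RefSeq start lay within 1 kb of 55 of the 878 regions (6.26%), a share close to the 5.30% of intronic and 6.68% of intergenic distal regions. By class it was 23 of 272 in coding exons, 10 of 320 in 3' UTRs, 15 of 275 in non-coding exons and 7 of 11 in 5' UTRs. These 55 had a median fold of 7.38 and a median width of 685 bp, against 6.24 and 431 bp in the other 823, and 40.0% of them had a CpG-rich summit window against 10.1%. The Ythdc2 region named above is among them, with its midpoint 86 bp from a RefSeq start.

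Signal and width of exonic regions were close to those of intronic ones. The median width was 436 bp (quartiles 278 and 646 bp) in exonic and 439 bp in intronic regions, and promoter regions within 1 kb of a start were wider at 797 bp. The median fold was 6.28 (quartiles 4.78 and 8.37) in exonic, 6.37 in intronic, 6.77 in intergenic and 9.23 in promoter regions. Among exon classes it was 6.43 in coding exons, 6.26 in 3' UTRs, 6.00 in non-coding exons and 9.30 in 5' UTRs. Exonic folds ran from 1.68 to 16.05 over 878 regions. The maxima were 27.6 over 6458 intronic and 45.5 over 4704 intergenic regions, and a maximum depends on the number of regions. Upper quartiles were closer, at 8.37 in exonic, 8.42 in intronic and 8.93 in intergenic regions. The widest exonic regions were in the 3' UTRs of Tmem184a (1797 bp, fold 5.97) and Samd7 (1745 bp, 10.36) and in coding exons of the gastric mucin gene Muc6 (1750 bp, 3.42) and the linker histone gene Hist1h1d (1697 bp, 4.91). Muc6 was in neither replicate's thresholded list and lies wholly in an exon of 4329 bp. The Hist1h1d midpoint is 691 bp from a RefSeq start.

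Coding-exon regions were mostly wider than the exon at their centre. Of the 272, 187 (68.8%) were centred on an internal exon, 72 (26.5%) on a last exon, 7 on a first exon and 6 on the exon of a single-exon transcript. The exon was shorter than the region in 169 (62.1%), and its median length was 228 bp against a median region width of 444 bp. The coding part of a region had a median of 52.1% (quartiles 33.1 and 79.1%), and 71 regions were wholly exonic. The strongest summit lay in coding sequence in 187 of 272 regions, in an intron in 54 and within 1 kb of a start in 6. These 54 regions had a median width of 632 bp and a median of 35.9% exon sequence, so the exon covered a flank of the peak rather than its top. In 3' UTRs the picture was different: the median exon was 2290 bp long, 256 of 320 regions (80.0%) were wholly exonic, 301 were in the last exon, and the summit lay in a 3' UTR in 300.

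**Figure D3:**
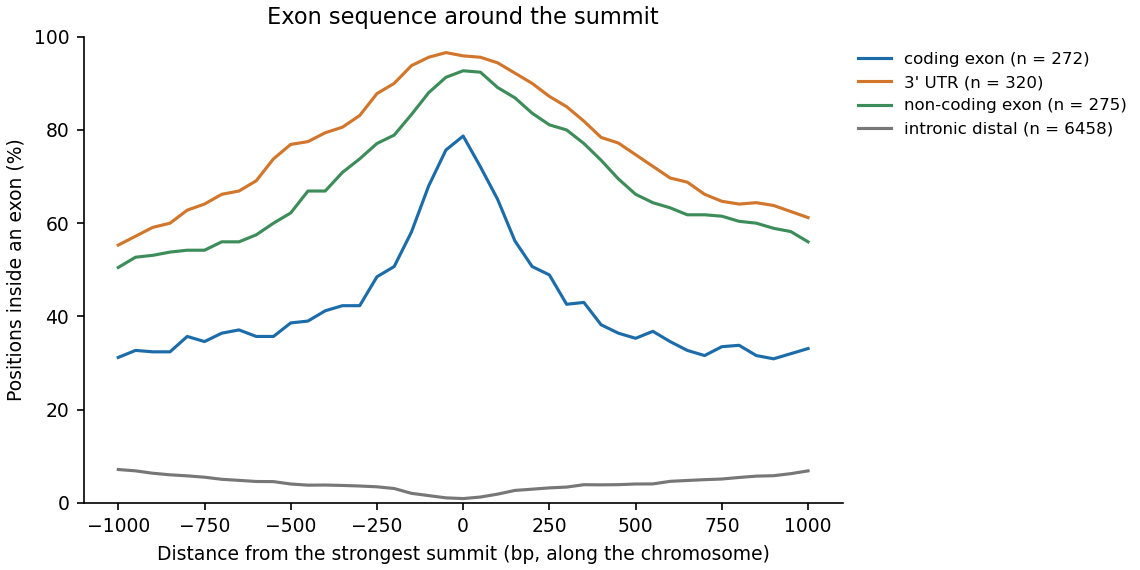
Share of positions inside an exon of any class (y axis, percent) at each distance from the strongest summit (x axis, bp along the chromosome), one line per class of region. Coding-exon regions peak at 78.7% at the summit and fall to 50.7% at 200 bp to either side, 3' UTR regions stay at 90.0% there, and intronic regions dip to 0.914% at the summit.

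The strongest coding-exon regions were in both replicates' lists. In Ankrd40, an ankyrin repeat gene, the region (chr11:94334268-94334987) is centred on exon 3 of 5 and had a fold of 15.01, with 14.41 in replicate 1 and 13.59 in replicate 2, each on its own list's scale. The summit is in coding sequence and 10 bp from the GATA pair match printed above. Odf2, a centriole and sperm tail gene, had a region (chr2:29917304-29918186) centred on exon 13 of 16 with a fold of 14.60, at 14.62 and 12.55 in replicates 1 and 2. That exon is 136 bp long and the region 883 bp, and the summit falls in a non-coding exon. The BTB zinc finger gene Zbtb5 had a region lying wholly in its last coding exon of 4142 bp (chr4:44993774-44994389), with a fold of 13.42 and 12.87 and 12.40 in the replicates. Tnrc18, a gene with a trinucleotide repeat, had a fold of 13.50, at 12.47 and 11.71, in an internal exon of 999 bp (chr5:142771836-142772486).

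The other 6 of the 10 coding-exon regions of highest fold included 4 with an intronic summit. Trim14, of the tripartite motif family, had a fold of 13.97 (13.62 and 12.14), and the histone methyltransferase gene Prdm2 one of 13.34 (12.35 and 12.63). Their summits were in introns, 12.4% of the Prdm2 region was coding, and its midpoint was 5 bp from a RefSeq start. Oas3, of the antiviral oligoadenylate synthetases, had a fold of 13.26 (13.02 and 11.47), also with an intronic summit. Sidt1, of a family of membrane proteins that transport nucleic acids, had one of 12.99 (12.17 and 11.18) over an exon of 67 bp. Pura, which encodes a protein that binds purine-rich single strands, had a fold of 12.65 and a region of 1429 bp with its summit in a 5' UTR, and Nsmce4a, a subunit of a DNA repair complex of the SMC family, had one of 12.56 with an intronic summit. In each of these 10 regions replicates 1 and 2 both listed the region, and their folds lay between 10.38 and 14.62.

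The 3' UTR regions of highest fold were also in both replicates' lists. The replication factor gene Wdhd1 had a region (chr14:47240481-47241445) with a fold of 14.75, at 14.54 in replicate 1 and 13.49 in replicate 2. It reaches past the end of the gene: 52.0% of it is exonic and its summit is intergenic. Luc7l3, a gene of the splicing machinery, had a region (chr11:94289838-94290836) that lies wholly in a last exon of 3689 bp, with a fold of 14.44, at 13.88 and 13.22. Zfp568, a KRAB zinc finger repressor, had a fold of 13.95 (13.28 and 12.70) at 20.8 kb from the nearest start. Hpd, of tyrosine breakdown, had 13.61 (13.23 and 12.76) at 1.02 kb from a start.

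Others of the 10 strongest 3' UTR regions followed closely. Iffo2 (intermediate filament family) had a fold of 13.46, and Pdcd7, a protein of the minor spliceosome, one of 13.45. Pdcd7 and Dcaf17 were the only ones of the 10 with the higher fold in replicate 2, at 11.99 against 13.09 and 11.09 against 12.10. Ppp1r18, a regulatory subunit of a protein phosphatase, had 13.34, and Gatc, of mitochondrial tRNA charging, 12.91 with a GATA pair match in the UTR.

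The 5' UTR class is small and mostly close to starts that another annotation records. Sf3b5, a splicing factor subunit, had the highest fold of all exonic regions at 16.05 (15.18 and 15.02 in replicates 1 and 2), in a region of 1201 bp (chr10:13007928-13009128). Its midpoint is 3185 bp from the nearest GENCODE start and 78 bp from a RefSeq start. Nup160, of the nuclear pore, had a fold of 12.72 at 1865 bp from a RefSeq start, and A930004D18Rik one of 10.16 at 353 bp. The proteasome ATPase gene Psmc2 had 9.59 at 59 bp and Ethe1, of mitochondrial sulfide oxidation, 9.33 at 13 bp. The 11 folds ran from 3.29 to 16.05, 7 of the 11 regions were in both replicates, and 6 had a CpG-rich summit window.

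Non-coding exons were divided nearly equally between transcripts of protein-coding genes and other genes. Of the 275, 132 (48.0%) lay in a non-coding transcript of a protein-coding gene and 143 in another gene, among them 54 in lincRNA genes, 30 in genes of the annotation's TEC class, 24 in antisense genes and 6 in pseudogenes. By transcript type, 113 (41.1%) were in transcripts annotated with a retained intron. Regions in protein-coding genes had a median fold of 5.77 and a GATA match in 56.1%, and those in other genes a median fold of 6.39 and a GATA match in 37.8%. The sphingomyelin synthase gene Sgms1 had the highest fold, 14.77 (14.75 and 12.97), in a retained-intron transcript, with its midpoint 1486 bp from a RefSeq start. The lincRNA genes 6030443J06Rik and B930059L03Rik had 14.12 (13.76 and 11.76) and 13.52 (12.90 and 12.02), and Gm48356 had 13.45 (12.02 and 13.16). The B930059L03Rik midpoint is 239 bp from a RefSeq start.

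Replicate sharing in exons was below that of the whole list and near that of other distal regions. A region counted as shared when it overlapped a thresholded region of each replicate by at least 1 bp, which 65.3% of all 24394 regions did. Of the exonic regions 474 of 878 did, or 54.0% (50.7 to 57.3%), against 49.7% (48.5 to 50.9%) of intronic, 51.6% of intergenic and 79.4% of promoter regions. The share was 55.5% (49.6 to 61.3%) in coding exons, 53.8% in 3' UTRs, 52.4% in non-coding exons and 7 of 11 in 5' UTRs, and these intervals overlap. A further 107 regions (12.2%) were in replicate 1 only, 63 (7.18%) in replicate 2 only and 234 (26.7%) in neither list. In the authors' less strict overlap lists 781 of the 878 regions (89.0%) were in both replicates and 22 (2.51%) in neither.

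Sharing rose with fold, in part by construction. The fold came from the list of both libraries, and sharing means passing a threshold in each of the same libraries. Regions were placed in 4 bands cut at the quartiles of the fold of all distal regions. In the lowest band, up to 5.04, 57 of 249 exonic regions (22.9%, 18.1 to 28.5%) were in both replicates, against 17.3% of intronic ones. In the third band, from 6.52 to 8.63, the shares were 69.9% (63.1 to 76.0%) and 62.8% (60.4 to 65.1%). In the top band they were 94.7% and 92.8%. Intergenic regions rose likewise, from 20.7% in the lowest band to 93.6% in the top one. The median fold was 7.93 for regions in both replicates, 5.78 for replicate 1 only, 5.96 for replicate 2 only and 4.69 for neither. The rule gave 595 regions on the list of replicate 1 alone and 545 on that of replicate 2 alone, and 2078 on the series' overlap list, of which 22.8% were in both replicates' thresholded lists.

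Where both replicates listed a region, their folds were close. Over the 474 shared regions the median fold was 7.46 in replicate 1 and 7.32 in replicate 2, and the ratio of replicate 1 to replicate 2 had a median of 1.01 and quartiles of 0.935 and 1.08. It ran from 0.717 to 1.64, and 2 regions, both in non-coding exons, differed by more than 1.5 times. Replicate 1 was the higher in 247 regions and replicate 2 in 227. Coding exons divided 76 to 75 and 3' UTRs 83 to 89, while in non-coding exons replicate 1 was the higher in 85 of 144. Each list has its own fold scale, so these ratios describe the lists.

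**Figure D4:**
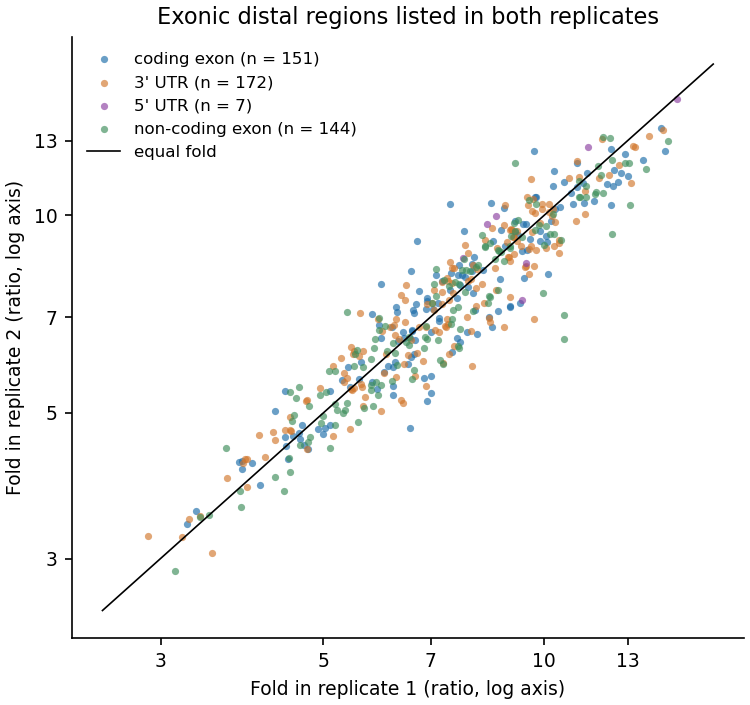
Fold in replicate 1 (x axis, ratio) against fold in replicate 2 (y axis, ratio), both on log axes, for the 474 exonic distal regions listed in both replicates; points are regions coloured by exon class and the line marks equal fold. The points follow the line, with ratios between 0.717 and 1.64.

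Base composition followed the exon class. The median GC content of the window of 201 bp around the summit was 56.7% in coding exons, 52.0% in 3' UTRs, 51.2% in non-coding exons and 50.7% in introns. A window was called CpG-rich at 50% GC or more and an observed to expected CpG ratio of 0.6 or more. That held for 54 coding-exon regions (19.9%), 18 in 3' UTRs (5.62%), 27 in non-coding exons (9.82%) and 3.30% of intronic regions, and for 69.5% of promoter regions. The 105 CpG-rich exonic regions had a median fold of 7.06 and 67.6% were in both replicates, against 6.20 and 52.1% in the other 773. They were also nearer to starts: 47.6% of them lay within 2 kb of one, against 25.4% of the others. A GATA match was found in 17.1% of the CpG-rich ones and 44.4% of the others. Intronic regions showed the same contrasts. CpG-rich ones there had a median fold of 6.78 against 6.36, and 60.1% against 49.4% were in both replicates. Within 2 kb of a start lay 30.0% against 15.0%, and 25.8% against 55.5% had a GATA match.

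CTCF matches were more frequent in 3' UTR regions than in intronic ones. The consensus was found within 100 bp of the summit in 11.6% of all distal regions and in 119 of the 878 exonic ones, or 13.6% (11.4 to 16.0%). In 3' UTRs it was 57 of 320 (17.8%, 14.0 to 22.4%), in coding exons 38 of 272 (14.0%, 10.4 to 18.6%) and in non-coding exons 24 of 275 (8.73%, 5.93 to 12.7%). Intronic regions held it in 9.85% (9.15 to 10.6%), intergenic ones in 13.6% and promoters in 2.43%. Windows of the same length were centred in exon pieces and kept when no region overlapped the window, though one could lie elsewhere in the piece. The consensus was in 0.126% of 143499 coding, 0.118% of 22940 3' UTR and 0.0860% of 34879 non-coding windows. Those windows had a lower median GC (48.8, 43.8 and 44.3%).

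The CTCF letters lay close to the summit and often in the exon itself. Of the 119 matches nearest to the summit, 97 were within 25 bp of it. In 3' UTR regions 56 of 57 lay wholly in 3' UTR sequence, whereas in coding-exon regions 16 of 38 lay wholly in coding sequence and 16 wholly in an intron. The 3' UTR placement is largely set by the rule, since 80.0% of these regions were wholly exonic. It was much the same for the GATA pair (44 of 48) and KLF (53 of 57). The CTCF match ran in the direction of the host gene in 54 of 119. Regions with a CTCF match had a median fold of 6.02 against 6.37 without one, and 41.2% of them were in both replicates against 56.0%. The same contrast was seen in introns (30.0% against 51.9%). Of the regions whose CTCF windows are printed above, Tecpr2, an autophagy gene, had one with a fold of 11.77 and 9.70 and 12.52 in replicates 1 and 2, and Cryzl1, of the quinone oxidoreductase family, one with 11.14 (9.65 and 10.60). Dennd2a, of the DENN domain family, had 10.14 (9.42 and 8.34) and Synpo2l, of muscle actin organisation, 10.31 (9.88 and 9.46).

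GATA matches were less frequent in exonic regions than in intronic ones. The GATA consensus was found in 49.8% of all distal regions and in 361 exonic ones, or 41.1% (37.9 to 44.4%). It was in 54.5% (53.3 to 55.7%) of intronic, 45.0% (43.6 to 46.4%) of intergenic and 16.7% of promoter regions. Coding exons had it in 35.7% (30.2 to 41.5%), 3' UTRs in 41.9% and non-coding exons in 46.5%. Exon windows without a region held it in 25.4% (coding), 31.2% (3' UTR) and 31.5% (non-coding). Summit windows had a median GC of 56.7% in coding exons and 50.7% in introns. Intron windows without a region were not searched, and the part of base composition was not tested. The GATA pair, which contains the GATA consensus, was in 15.8% of all distal regions and in 126 exonic ones, or 14.4% (12.2 to 16.8%), with 15.1% in coding exons, 15.0% in 3' UTRs and 13.5% in non-coding exons. Introns had 17.9%, intergenic regions 13.2% and exon windows without a region 1.99 to 2.36%.

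Exonic regions with the GATA pair were stronger and more often in both replicates. Their median fold was 7.41 against 6.16 without the pair, and 94 of 126 (74.6%) were in both replicates against 50.5%. The same contrast was seen in introns (7.62 against 6.18, and 71.0% against 45.1%). It was also seen in intergenic regions (7.80 against 6.62, and 69.2% against 48.9%). In coding exons the pair itself lay wholly in coding sequence in 22 of 41 regions and wholly in an intron in 15. In 3' UTRs 44 of 48 pairs lay wholly in the UTR. It was within 25 bp of the summit in 68 of the 126. Of the 5 strongest coding-exon regions with the pair (Ankrd40, Odf2, Tnrc18, Zbtb5 and Oas3) the letters are coding in Ankrd40, Tnrc18 and Zbtb5.

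**Figure D5:**
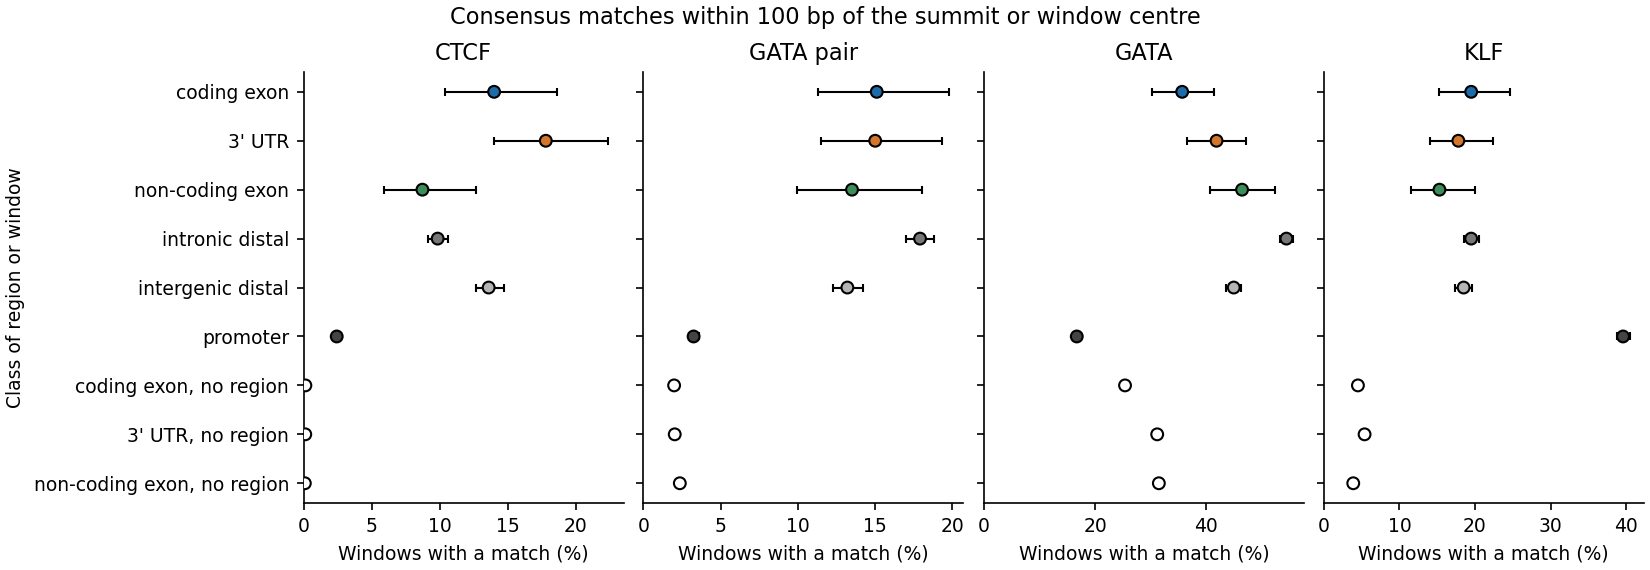
Share of 201 bp windows with a consensus match (x axis, percent) by class (y axis), one panel for each of CTCF, GATA pair, GATA and KLF; filled points are region summits, open points exon windows without a region, and error bars 95% Wilson intervals. CTCF is at 17.8% in 3' UTR regions against 9.85% in intronic ones, GATA at 35.7% in coding exons against 54.5%, and all 3 exon window classes lie below the exonic regions of their class in these 4 panels.

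KLF matches were about as frequent in exonic as in intronic regions. The consensus was in 19.0% of all distal regions and in 154 exonic ones, or 17.5% (15.2 to 20.2%), against 19.5% of intronic regions, 39.6% of promoters and 3.89 to 5.39% of exon windows without a region. NFE2, whose letters contain those of AP1, matched in 2.57% of all distal and 2.16% of exonic regions (19 regions, 1 of them in a coding exon). AP1 (TGA, C or G, TCA) matched in 7.27% of all distal and 5.01% of exonic regions, with 1.84% in coding exons. The 19 exonic regions with NFE2 had a median fold of 4.79, while the intronic ones had 7.56. The strongest of them in a 3' UTR was in D430041D05Rik (fold 9.38, at 9.44 and 8.37).

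RUNX, NFY and PU.1 gave shares close to the distal background. RUNX (TG, C or T, GGT, C or T) matched in 10.9% of all distal and 9.91% of exonic regions, and NFY (CCAAT, C or G, A or G) in 7.52% and 7.18%. PU.1 (A or G, then AGGAAGT) matched in 2.87% and 2.62%. ETS (ACC, then GGAAGT) matched in 0.183% of all distal regions and 0.342% (0.116 to 1.00%) of exonic ones, which is 3 regions. NRF1 matched in 0.141% and 0.228% (0.0625 to 0.827%), which is 2 exonic regions. These counts are too small to call close or different. All consensus sequences were searched on both strands. RUNX, NFY and PU.1 matched in 8.21%, 20.6% and 2.85% of promoters. No match of CTCF, GATA or KLF was found in 333 exonic regions (37.9%), against 28.5% of intronic and 34.2% of intergenic ones.

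The 878 regions fell in 810 genes, of which 679 were protein-coding. That is 3.10% of the 21911 protein-coding genes of the annotation. A region that overlapped the 1 kb to either side of a start of the gene was found for 513 of the 679 (75.6%, 72.2 to 78.6%). This was close to the 76.7% of 3184 genes with an intronic region, and 45.8% of all protein-coding genes had one. Any region could count, including an exonic one of the gene that reached that far. An intronic region as well was found in 268 of the 679 (39.5%). For comparison, 3184 genes held an intronic region, in an annotation of 21911 protein-coding genes. The nearest transcript start was one of the same gene in 603 of 878 regions (68.7%), with 73.5% in coding exons and 56.6% in 3' UTRs. In 21 regions the midpoint was in exons of 2 genes, so that the assignment to 1 of them is a choice.

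A single exonic region was the rule, with 747 genes holding 1, 58 holding 2 and 5 holding 3. In Dpysl5, of the collapsin response mediators of neuronal growth, 3 regions lay in or beside the last exon, with folds of 4.65, 3.93 and 9.89 in order along the chromosome. The last of them (chr5:30797306-30798284) had 10.48 and 9.18 in replicates 1 and 2, and the middle one was in neither thresholded list. In Naa16, of the N-terminal acetyltransferases, 2 regions lay in a 3' UTR exon of 10663 bp (folds 5.57 and 10.06) and 1 in coding exon 4 (8.74). In Sox5, of the SOX transcription factors, 3 regions (6.42, 8.73 and 5.12) were the farthest of all from a GENCODE start, at 114455, 113639 and 102746 bp, while RefSeq starts lay 60957, 60141 and 49248 bp away. Cbx6, of the Polycomb group, had 3 between 4.82 and 5.70, and the phosphatase gene Ptp4a3 had 3 between 3.12 and 5.17.

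The next farthest from a GENCODE start were in Spred2 and Usp24. Spred2, an inhibitor of RAS signalling, had a 3' UTR region at 68.1 kb (chr11:20022372-20022931) with a fold of 11.28, at 11.04 and 9.82, although a RefSeq start lies 6595 bp away. Usp24, a deubiquitinase, had a coding-exon region at 54.0 kb with a fold of 5.17 that was in neither thresholded list, with a RefSeq start 7726 bp away. Among genes with 2 exonic regions, the adiponectin receptor gene Adipor1 had 1 in a coding exon (6.15) and 1 in a non-coding exon (11.69, at 11.40 and 11.09), and Afmid, of tryptophan breakdown, had 1 in a coding exon (3.41) and 1 in a 3' UTR (9.66). The lincRNA gene 1700020I14Rik had 8.89 and 7.95 in 1 exon of 7915 bp.

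Genes of the erythroid lists held exonic regions more often than protein-coding genes in general. Of 122 genes in the 5 lists 12 had one (9.84%), against 3.10% of all protein-coding genes and 1 of 123 genes (0.813%) in the lists of other cell types. Their transcript starts were also more often accessible, as given above, and the part of this in the counts was not tested. All but the regions of Foxo3 and Mpp1 and the first of Erfe had folds below the exonic median of 6.28. Erythroid regulators with one were Foxo3, Klf1, Lyl1 and Sox6, 4 of 32. Klf1, the erythroid CACC-box factor, had a region of 616 bp in its second coding exon (chr8:84903016-84903631) with a fold of 5.08, at 5.11 and 4.80. Foxo3, a forkhead factor of late erythroid maturation, had 7.18 (6.47 and 7.44) at a 3' UTR with the summit in an intron. Lyl1, a relative of TAL1, had a 3' UTR region of fold 2.87 with a CTCF match, listed in replicate 2 only, and Sox6, a repressor of embryonic globin, had 5.08 (4.96 and 4.82) in a retained-intron transcript.

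Of 25 haem and iron genes 4 (16.0%) had an exonic region, against 3.10% of all protein-coding genes. Among them were Blvrb, Erfe and Fech. Erfe, which encodes erythroferrone, the erythroid hormone that lowers hepcidin, had 2 in its last exon. The first (chr1:91373324-91373940) had a fold of 6.51, at 6.66 and 5.69, with GATA and KLF matches. The other, of fold 1.68, was in neither list and overlaps an exon of Ilkap. Blvrb, a biliverdin reductase, had 5.87 (5.90 and 5.57), and Fech, of haem synthesis, had 5.50 (5.05 and 5.39).

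Of 35 membrane and surface genes 3 (8.57%) had one, a small count, against 3.10% of all protein-coding genes. Mpp1, a scaffold of the red cell membrane, had the strongest of the listed erythroid genes (chrX:75115541-75116391), with a fold of 10.97 and 10.53 and 9.18 in replicates 1 and 2. It is centred on an exon of a retained-intron transcript, with the summit in an intron beside a GATA pair. Aqp1, the water channel, and Slc4a1, the band 3 anion exchanger, had 3' UTR regions of 3.18 and 2.88 that were in neither replicate's thresholded list. Of 20 genes of erythropoietin signalling Irs2 had one (4.18, in neither list), and none of 10 globin genes did. Both counts are too small to set against that 3.10%.

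Cell cycle and replication genes had one in 4 of 27 (14.8%), against 3.10% of all protein-coding genes. The D cyclin gene Ccnd3, which acts in the divisions of erythroid progenitors, had the strongest (chr17:47578418-47579281), with a fold of 13.42 and 13.04 and 12.01 in replicates 1 and 2, in a retained-intron transcript 14.6 kb from a start and with a GATA match. Ccnd2 had 6.20 with a CTCF match, in replicate 2 only, and Rrm1, a ribonucleotide reductase subunit, had 5.72 (5.85 and 5.12) with GATA, KLF and NFE2 matches. Cdc25a, a cell cycle phosphatase, had 5.50 in a 3' UTR and was in neither list. None of 14 chromatin architecture genes had one, a count too small to set against the 3.10% of all protein-coding genes. In the 10 lists of other cell types, Kdr, the endothelial growth factor receptor, was the gene with one, of fold 8.56 (7.81 and 7.63), in a retained-intron transcript.

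The counts in gene families chosen by their symbols were small. Of 397 genes named Zfp, 6 had one (1.51%), against 3.10% of all protein-coding genes, and none of 68 protocadherin, 39 Hox, 110 keratin or 57 large ribosomal subunit genes had one. Of 385 solute carrier genes 19 had one (4.94%), and of 67 histone genes 4, in Hist1h1d, Hist1h2be, Hist1h3d and Hist1h3f. Of 49 collagen genes 1 had one, and of 17 Klf genes 1.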

How the data were processed

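ATAC-seq peak lists on mm10 were used for 2 libraries of 1 group. The authors called peaks for each replicate and for the pooled libraries, per the deposited file listing. Aligner, caller and versions, and how Tn5 offsets and duplicates were handled, were not given in the sources used here. By their layout and values, the deposited columns were read as a fold, a ratio computed by the authors, and a p-value as −log10, and both served only to describe and rank regions. Read depth is unknown from peak lists.

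Records that overlapped or touched were merged with pandas 2.3.3 and numpy 2.4.6 in Python 3.11.15, and classed by midpoint against GENCODE M21: within 1 kb of a start, then coding exon, 3' UTR, 5' UTR, non-coding exon, intron and intergenic. Densities divide counts by the sequence of each class over 1 kb from every start. A record's position of maximum gave the summit. Sequence came from RefSeq GRCm38.p6 through pysam 0.24.0, and 11 consensus sequences were searched in 201 bp windows. Scripts were tested on simulated data. No p-values were computed, since regions of 1 sample are not replicates.

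Genes were named by rule: the 10 with the most regions, the highest folds per class (10 in coding exons and 3' UTRs, 5 in 5' UTRs and non-coding exons), those of the 17 gene lists, the strongest with a motif match, and those widest, farthest and nearest to the limit. The members, lists and rules were chosen with earlier results of these data known. Some genes that the rule names are not reported here.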

Additional observations from a re-analysis of the deposited data

How the results depend on the processing

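Of 116 values recomputed under 13 alternatives, 75 stayed within the limits set for them and 41 moved. For shares the limits were the Wilson intervals. For the number of regions they were 585 to 1317 and for the density ratio 1.53 to 1.76. For medians they were 6.07 to 6.46 for fold, 419 to 450 bp for width and 52.7 to 54.2% for GC. The quartiles of fold and width given above did not serve as limits. None of the 4 values recomputed without regions near a RefSeq start moved, and that alternative was chosen after seeing the data. The conservative list and placement by the strongest summit moved none of 12 values each. With a limit of 500 bp in place of 1 kb the density ratio was 1.77 and the median fold 6.02, and with 2 kb the median fold was 6.48. Basic transcripts alone put 43.9% of exonic regions in coding exons, and giving UTRs precedence over coding sequence put 24.9% there. The less strict overlap list gave 2078 regions, 40.0% in coding exons, a density ratio of 1.80, a median fold of 3.98, 22.8% in both replicates and a CTCF match in 9.24%. Regions at or above the list's median fold gave 293 regions, a median fold of 9.46, 89.4% in both replicates and a CTCF match in 9.90%. With either replicate left out, the other's own list gave 545 to 595 regions, 30.6 to 32.3% of them in coding exons, a density ratio of 1.73 to 1.74, a median fold of 6.94 to 7.03 and a CTCF match in 10.3 to 10.6%. The lower number, 545, came without replicate 1. The exonic share with a GATA match moved to 36.7% with basic transcripts, 32.2% on the overlap list and 47.1% at or above the list's median fold. It was 47.0% without replicate 1, 44.9% without replicate 2 and 31.3% within 50 bp of the summit. The KLF share moved to 13.7% on the overlap list, 20.5% without replicate 2 and 13.6% within 50 bp. Intronic shares were not recomputed. The causes were not tested. Read depth could not be read from the lists, so a region missing from a replicate may lie below its threshold there.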
